A study of Danio rerio with 4 samples.

Results

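The genes that handle iron and heme in the liver were given by 10 symbols (*hamp*, *tfa*, *hpx*, *hp*, *fth1a*, *slc40a1*, *cp*, *tfr2*, *tfr1b* and *hmox1a*) and looked up among the 16405 genes of the deposited expression table. Their rows were picked by symbol and not by their values, but the symbols were chosen with earlier results of these data known. The table listed 9 of the 10 symbols in 10 rows, since *hp* names 2 rows, and *hpx* was found as *hpxa*, its present name, which made 11 rows. Of these, 7 averaged 10 TMM or more and were tested, and the 4 rows left (*slc40a1*, *tfr2*, *tfr1b* and *hmox1a*) rested on at most 18 reads in any library.

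RNA of whole livers was compared between fasted wild-type (WT) zebrafish larvae and fasted *pex5*-/- larvae, both at 6 days post-fertilization (dpf), to learn which genes differ between the genotypes under fasting. *pex5* encodes the receptor that carries enzymes into peroxisomes, and the mutants are homozygous for a small deletion in its reading frame, made with CRISPR/Cas9 and descended from a founder fish. There were 2 WT libraries (replicates 1 and 4) and 2 *pex5*-/- libraries (replicates 1 and 2), with no fed larvae among them. The labels do not say whether the libraries come from separate clutches, so the tests measure only the spread between these samples, which may be technical.

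The vertebrate liver makes most of the proteins that move iron in blood. Hepcidin, a peptide hormone made by hepatocytes, causes the iron exporter ferroportin to be degraded and so lowers the release of iron into plasma, where transferrin carries it to cells that hold it in ferritin. Free hemoglobin and free heme are bound by haptoglobin and hemopexin, and the heme is opened by heme oxygenase, which frees its iron. In mammals hepcidin, haptoglobin, hemopexin and ceruloplasmin also rise in the acute phase response to inflammation.

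CEL-Seq2 counts molecules near the 3′ end of each transcript with unique molecular identifiers (UMIs), and the deposited log2(TMM + 1) values gave back between 1217737 and 1425834 deduplicated reads per library. TMM is the count scaled by the trimmed mean of M-values, 1 read was worth between 0.691 and 0.785 TMM, and 3 reads, taken as the floor, between 2.07 and 2.36 TMM. Differences are *pex5*-/- minus WT in mean log2(TMM + 1), with the standard error (SE) of limma, and on this scale the change of a gene with few reads comes out too small. Intervals given for ratios of 2 libraries are 95% intervals that cover counting error only. Of 19 listed hepatocyte markers 18 passed the filter, *hnf4a* lay under the floor in every library, and the *pex5* transcript was not analysed here. The WT libraries stood apart from each other in the sum of the iron and heme rows, though not in every row. The 11 rows took 0.852% of the reads of WT replicate 1 and 0.43% of those of WT replicate 4, against 0.643% and 0.706% in the *pex5*-/- libraries. *hamp* alone took 0.342% and 0.0815% in WT and 0.102% and 0.203% in the *pex5*-/- libraries. *fth1a* took 0.0752% and 0.082% in WT. Among the 15 tested genes of a list of acute phase proteins, 10 were highest in WT replicate 1, which was the highest library for 23.2% of all tested genes. That list holds *hamp*, *cp*, *hpxa* and *hp* on chromosome 7 themselves, so it is not separate from the iron and heme genes. Of the 10, *saa* and *hp* on chromosome 7 passed the filter only through WT replicate 1, so that library was bound to be their highest. The differences of the tested rows are therefore also given without each WT library, as values or as a range.

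No iron or heme gene was called different between the genotypes, and none of the 7 tested rows had an unadjusted p under 0.05. Their adjusted p in limma with Benjamini-Hochberg adjustment was 1.00 in each case. Over all 3349 tested genes, 0 (0%) had an adjusted p under 0.05 and 121 (3.61%) an unadjusted p under 0.05, and a limma fit with voom weights on the reads gave 0 and 94. With 2 libraries a group, an exact permutation test (two-sided) of any gene has 0.333 as its smallest p. Without overlap between the genotypes, 3 of the 7 rows were higher in *pex5*-/- livers (*tfa*, *fth1a* and the *hp* row on chromosome 8), where 16.9% of all tested genes were, and 0 of the 7 were lower, where 13.5% of all were. Leaving aside *hp* on chromosome 7, which passed the filter only through WT replicate 1, these counts were 3 and 0 of 6. The *hp* row on chromosome 8 is named *msmbl* in the gene name table and entered these counts by its symbol only. Apart from it, *tfa* and *fth1a* were the rows higher without overlap. The plot of the members by library shows the 3 higher rows beside those whose WT libraries lie furthest apart.

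**Figure D1:**
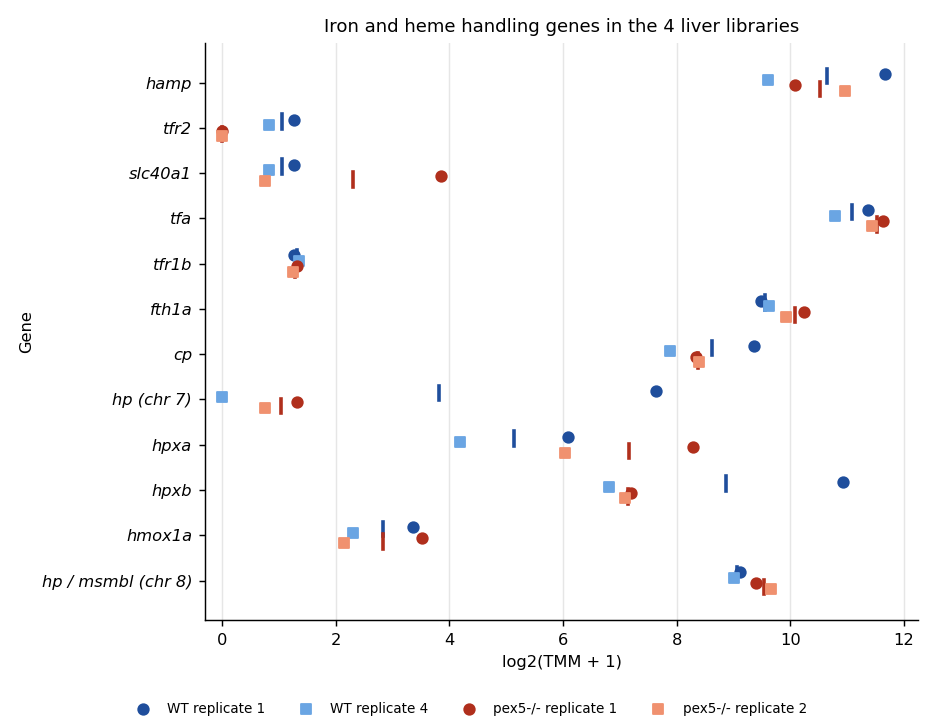
Level of each row picked by symbol, with *hpxb* added, as log2(TMM + 1) on the horizontal axis. The *hp* row on chromosome 8 is named *msmbl* in the gene name table. Each symbol is 1 library and each vertical bar the mean of a genotype. The *pex5*-/- symbols of *tfa*, *fth1a* and *hp* on chromosome 8 lie to the right of both WT symbols, while *hamp*, *cp*, *hp* on chromosome 7 and *hpxb* reach their highest level in WT replicate 1.

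*hamp* (ENSDARG00000102175, chromosome 16) encodes hepcidin. Its level was 3259 TMM in WT replicate 1 (4593 reads), 780 TMM in WT replicate 4 (993 reads), 1077 TMM in *pex5*-/- replicate 1 (1433 reads) and 1999 TMM in *pex5*-/- replicate 2 (2892 reads). Both the highest and the lowest level were thus WT, with the *pex5*-/- libraries between them. The means were 2020 ± 1753 TMM for WT and 1538 ± 652 TMM for *pex5*-/- livers (SD, n = 2 each). The difference was -0.12 (SE 0.72), against a gap of 2.06 between the WT libraries on the same log2 scale. WT replicate 1 held 4.18 times the level of WT replicate 4 (3.90 to 4.48), and *pex5*-/- replicate 1 held 0.539 times that of replicate 2 (0.505 to 0.574), so that neither gap was within counting error. Without WT replicate 1 the difference turned to 0.91, without *pex5*-/- replicate 1 to 0.33, and without WT replicate 4 it was -1.15.

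The genes that set hepcidin levels in mammals were mostly thin. *tfr2* (ENSDARG00000103727, chromosome 23), transferrin receptor 2, a sensor of iron-loaded transferrin on hepatocytes, had 2 reads in WT replicate 1, 1 in WT replicate 4 and 0 in both *pex5*-/- libraries. All 4 values lie under the floor, so no difference was detectable at this depth. *hjv*, hemojuvelin, a co-receptor for the bone morphogenetic proteins (BMPs) that switch on hepcidin, measured 21.3 and 31.4 TMM in WT and 21.8 and 42.9 TMM in *pex5*-/- livers, which overlapped (difference 0.23, SE 0.43). *id1*, a gene switched on by BMP signalling, measured 172 and 203 TMM in WT and 123 and 223 TMM in *pex5*-/- livers, and so overlapped too. *bmp6* had 3 reads in each WT library and 2 in each *pex5*-/- library. Of the 9 tested genes of hepcidin control, 0 were higher and 2 were lower without overlap, where 16.9% and 13.5% of all tested genes were. One was *socs3b*, a feedback inhibitor of cytokine signalling, at 38.3 and 37.7 TMM in WT and 18.8 and 24.2 TMM in *pex5*-/- livers (difference -0.80, SE 0.28, limma adjusted p = 1.00). The other was *il6r*, the interleukin-6 receptor, at 13.5 and 12.6 TMM in WT and 12.0 and 10.4 TMM in *pex5*-/- livers, from 19 and 16 reads against 16 and 15.

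*slc40a1* (ENSDARG00000000241, chromosome 9) encodes ferroportin, the exporter that hepcidin removes. It had 2 reads in WT replicate 1, 1 read in WT replicate 4, 18 reads in *pex5*-/- replicate 1 and 1 read in *pex5*-/- replicate 2. Only *pex5*-/- replicate 1 lay above the floor, at 13.5 TMM (18 reads, exact Poisson interval 10.7 to 28.5). Of 8 listed intestinal markers, 7 were highest in that library, with 276 reads of *vil1* against 4, 19 and 2 in the others, and 20 reads of *cdh17* against 2, 4 and 3. The most abundant of them, *apoa4b.1*, was high in both *pex5*-/- libraries, with 2903 and 2802 reads against 992 and 1224 in WT (difference 1.32, SE 0.24, limma adjusted p = 1.00). The list summed to 718 and 993 TMM in WT and 2456 and 1947 TMM in *pex5*-/- livers, and without *apoa4b.1* to 14.2 and 32.2 TMM against 274 and 9.68 TMM. The part of intestinal RNA in the reads of *slc40a1*, or of other genes high in *pex5*-/- libraries, was not tested. *slc11a2*, an importer of ferrous iron, showed no such gap, with 35 and 42 reads in WT and 41 and 37 in *pex5*-/- livers (difference -0.03, SE 0.30).

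*tfa* (ENSDARG00000016771, chromosome 2) encodes transferrin, the plasma carrier of ferric iron. It measured 2650 TMM in WT replicate 1 (3734 reads), 1775 TMM in WT replicate 4 (2260 reads), 3164 TMM in *pex5*-/- replicate 1 (4210 reads) and 2767 TMM in *pex5*-/- replicate 2 (4003 reads). Both *pex5*-/- libraries were above both WT libraries. The margin was narrow, because WT replicate 1 held 0.958 times the level of *pex5*-/- replicate 2 (0.916 to 1.00), which includes equal levels. The means were 2212 ± 619 TMM for WT and 2966 ± 281 TMM for *pex5*-/- livers (SD, n = 2 each), a difference of 0.45 (SE 0.25), smaller than the gap of 0.58 between the WT libraries. When the libraries were scaled to equal totals without the mitochondrial genome, *tfa* overlapped. Then 2 of the 7 rows were left higher without overlap, where 11.1% of all tested genes were. The *tfa* difference was 0.74 without WT replicate 1 and 0.16 without WT replicate 4.

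The receptors that take transferrin into cells were nearly absent from the reads. *tfr1b* (ENSDARG00000077372, chromosome 24), a transferrin receptor 1 gene, had 2 reads in every library, and its paralog *tfr1a*, known in zebrafish for its need in red cells, had 0 reads in all 4. With values this low, no difference was detectable. In these bulk samples a change in the share of a cell type and a change in RNA per cell cannot be told apart, which touches every comparison here.

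*fth1a* (ENSDARG00000015551, chromosome 7) encodes a ferritin heavy chain, the subunit that oxidizes iron for storage. Its level was 716 TMM in WT replicate 1 (1009 reads), 785 TMM in WT replicate 4 (999 reads), 1207 TMM in *pex5*-/- replicate 1 (1606 reads) and 969 TMM in *pex5*-/- replicate 2 (1402 reads). The genotypes did not overlap, and the nearest libraries were apart by more than counting error, with *pex5*-/- replicate 2 at 1.24 times WT replicate 4 (1.14 to 1.34). The means were 750 ± 48.4 TMM for WT and 1088 ± 168 TMM for *pex5*-/- livers (SD, n = 2 each). The difference of 0.53 (SE 0.22) exceeded the gaps of 0.13 within WT and 0.32 within *pex5*-/- livers, and it stayed between 0.37 and 0.69 when any library was left out. It did not pass the test, with an unadjusted p of 0.0624 in limma. *fth1a* was the only tested row of the set that was not lowest in WT replicate 4.

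Other ferritin genes varied in different ways. *fthl27*, a ferritin heavy-chain-like gene, measured 85.9 and 102 TMM in WT and 186 and 126 TMM in *pex5*-/- livers, again without overlap (difference 0.70, SE 0.31, limma adjusted p = 1.00). *fthl29*, another ferritin-like gene, was highest in WT replicate 4 (49 reads, against 9 in WT replicate 1 and 16 and 5 in *pex5*-/- livers). Reads of ferritin-like copies may be split between near-identical genes, and how the authors' counting treated them is not given in the sources used here. The paralog *fth1b* had 2 reads in WT replicate 4 and 0 in the others. *ncoa4*, the receptor that delivers ferritin to lysosomes, overlapped between the genotypes (5 and 15 reads in WT, 13 and 5 in *pex5*-/- livers). The iron regulatory proteins, which control ferritin translation, were read too thinly to compare, with at most 4 reads of *aco1* and 1 of *ireb2* in any library.

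*cp* (ENSDARG00000010312, chromosome 22) encodes ceruloplasmin, a copper enzyme that oxidizes iron as it leaves cells. It measured 660 TMM in WT replicate 1 (930 reads), 234 TMM in WT replicate 4 (298 reads), 323 TMM in *pex5*-/- replicate 1 (430 reads) and 337 TMM in *pex5*-/- replicate 2 (487 reads). The *pex5*-/- libraries were alike and lay between the WT libraries. The means were 447 ± 301 TMM for WT and 330 ± 9.52 TMM for *pex5*-/- livers (SD, n = 2 each), a difference of -0.25 (SE 0.52) against a WT gap of 1.49. WT replicate 1 held 2.82 times the level of WT replicate 4 (2.47 to 3.22). Leaving out WT replicate 1 turned the difference to 0.49, and leaving out WT replicate 4 made it -0.998.

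Among the genes that supply copper, *slc31a1*, the copper importer CTR1, was likewise highest in WT replicate 1, with 52 reads against 4 in WT replicate 4 and 20 and 15 in *pex5*-/- livers. *atox1*, the chaperone that hands copper to the secretory pathway, did not overlap between the genotypes. It measured 225 and 198 TMM in WT and 340 and 353 TMM in *pex5*-/- livers (difference 0.71, SE 0.23). Its unadjusted p in limma was 0.0280 and its adjusted p 1.00.

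The 2 rows named *hp* are different genes. The row on chromosome 7 (ENSDARG00000051890) carries the name *hp*, haptoglobin, the scavenger of free hemoglobin, in the gene name table too. It had 279 reads in WT replicate 1 (198 TMM), 0 in WT replicate 4, 2 in *pex5*-/- replicate 1 (1.50 TMM) and 1 in *pex5*-/- replicate 2 (0.691 TMM). Haptoglobin was thus read above the floor in WT replicate 1 alone, at 84.0 times the floor of 3 reads in WT replicate 4. The interval for the ratio of WT replicate 1 to WT replicate 4 had a lower end of 67.9. The gap between the WT libraries was the second largest of all 3349 tested genes in that direction (rank 2). The row passed the filter through that library only, so its difference of -2.78 (SE 2.98) describes WT replicate 1, and without that library it turned to 1.04 on at most 2 reads. Without WT replicate 4 it was -6.60.

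The row on chromosome 8 (ENSDARG00000095807), also *hp* in the deposited table, is named *msmbl* in the gene name table and is not treated as haptoglobin here. It measured 554 and 514 TMM in WT (780 and 655 reads) and 676 and 812 TMM in *pex5*-/- livers (899 and 1175 reads). The genotypes did not overlap, with means of 534 ± 27.7 and 744 ± 96.6 TMM (SD, n = 2 each). The difference of 0.47 (SE 0.22) stayed between 0.34 and 0.61 with any library left out, and did not pass the test.

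*hpxa* (ENSDARG00000012609, chromosome 9) encodes hemopexin, the plasma protein that binds free heme. It measured 67.4 TMM in WT replicate 1 (95 reads), 17.3 TMM in WT replicate 4 (22 reads), 313 TMM in *pex5*-/- replicate 1 (417 reads) and 64.3 TMM in *pex5*-/- replicate 2 (93 reads). *pex5*-/- replicate 1 was the highest library, while WT replicate 1 and *pex5*-/- replicate 2 did not differ beyond counting error (ratio 1.05, 0.780 to 1.41). The means were 42.3 ± 35.5 TMM for WT and 189 ± 176 TMM for *pex5*-/- livers (SD, n = 2 each). The difference was 2.02 (SE 0.96), the gaps within the genotypes were 1.90 and 2.27, and the unadjusted p in limma was 0.0879. It was 2.97 without WT replicate 1 and 1.07 without WT replicate 4. It was 0.88 without *pex5*-/- replicate 1 and 3.15 without *pex5*-/- replicate 2. *pex5*-/- replicate 1 held the most reads of *vil1*. It was also highest for 10 of 16 listed erythroid markers, where 27.4% of all tested genes were, and *pex5*-/- replicate 2 for 5. The 8 globin rows summed to 2003 TMM in *pex5*-/- replicate 1 and 1648 TMM in *pex5*-/- replicate 2. The part of either cell type in the *hpxa* reads was not tested.

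The second hemopexin gene, *hpxb* (ENSDARG00000051912, chromosome 16), was added after its values had been seen. It had 2748 reads in WT replicate 1 (1950 TMM), 141 in WT replicate 4 (111 TMM), 195 in *pex5*-/- replicate 1 (147 TMM) and 196 in *pex5*-/- replicate 2 (136 TMM). WT replicate 1 stood alone, at 17.6 times WT replicate 4 (14.9 to 21.0), 13.3 times *pex5*-/- replicate 1 and 14.4 times replicate 2. The paralogs thus peaked in different libraries, *hpxa* in *pex5*-/- replicate 1 and *hpxb* in WT replicate 1. The *hpxb* difference was -1.72 (SE 1.31) over all 4 libraries, 0.35 without WT replicate 1 and -3.78 without WT replicate 4, and only the last passed the test (limma adjusted p = 0.0272). That fit compares the *pex5*-/- libraries with WT replicate 1 alone and assumes that it varies as they do. *ambp*, the precursor of the heme-binding protein alpha-1-microglobulin, was even across the libraries, at 1120 and 1204 TMM in WT and 1345 and 1060 TMM in *pex5*-/- livers (difference 0.04, SE 0.22).

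*hmox1a* (ENSDARG00000027529, chromosome 3) encodes heme oxygenase 1, which opens the heme ring, and in mammals is induced by heme and by oxidative stress. It had 13 reads in WT replicate 1, 5 reads in WT replicate 4, 14 reads in *pex5*-/- replicate 1 and 5 reads in *pex5*-/- replicate 2. Each genotype had a higher and a lower library, and the difference was 0.01. The ratio of WT replicate 1 to *pex5*-/- replicate 1 had an interval from 0.379 to 2.01, so that even a change of that size was not detectable at this depth. Its paralog *hmox2a* had 2 reads in WT replicate 1 and 1 in the others. Of the biliverdin reductases that act next, *blvra* had 1 read in all and *blvrb* measured 47.5 and 40.1 TMM in WT and 44.3 and 41.5 TMM in *pex5*-/- livers (difference -0.02, SE 0.27).

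Heme synthesis was read mainly through *alas1*, 5-aminolevulinate synthase 1, which makes the first and rate-limiting step in the liver. It had 119 reads in each WT library (84.4 and 93.4 TMM), 493 in *pex5*-/- replicate 1 (371 TMM) and 218 in *pex5*-/- replicate 2 (151 TMM). Both *pex5*-/- libraries were above both WT libraries, but they were themselves apart by 1.29 on the log2 scale, and replicate 1 was the higher. That library held the most reads of *vil1*. It was also highest for 10 of 16 listed erythroid markers, where 27.4% of all tested genes were, and *pex5*-/- replicate 2 for 5. The 8 globin rows summed to 2003 TMM in *pex5*-/- replicate 1 and 1648 TMM in *pex5*-/- replicate 2. The part of either cell type in the *alas1* reads was not tested. The difference was 1.40 (SE 0.47), with an unadjusted p of 0.0303 and an adjusted p of 1.00 in limma. The other 9 genes of the pathway had at most 10 reads in any library, among them *alas2*, the red cell form, with 1 read in all. *pgrmc1*, a heme-binding membrane protein, showed the same order as *alas1*, at 96.5 and 137 TMM in WT and 286 and 178 TMM in *pex5*-/- livers (difference 0.97, SE 0.35, limma adjusted p = 1.00).

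**Figure D2:**
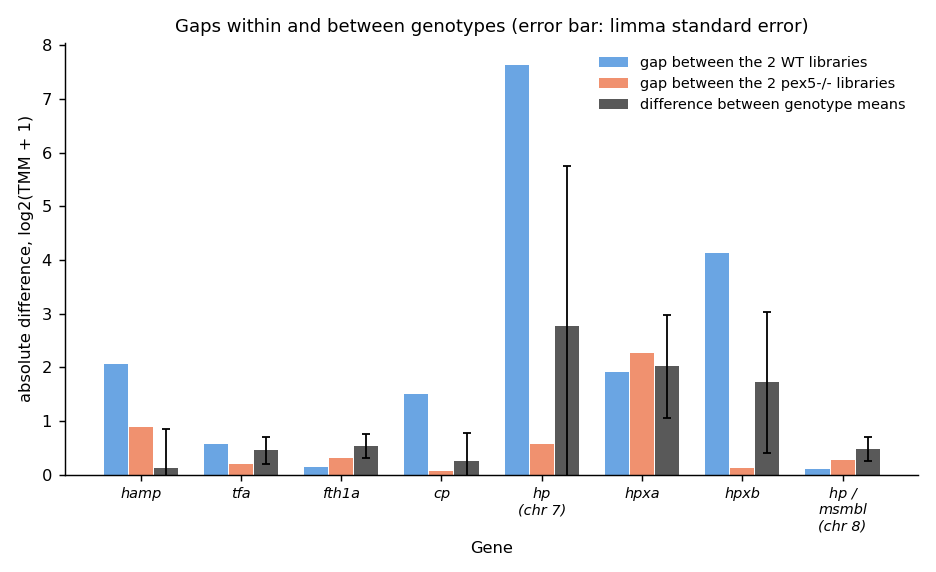
Absolute difference in log2(TMM + 1) for each tested row picked by symbol and *hpxb*: within WT, within *pex5*-/-, and between the genotype means with the limma standard error as error bar. The WT gap reaches 7.64 for *hp* on chromosome 7, 4.13 for *hpxb* and 2.06 for *hamp*, while *fth1a* and *hp* on chromosome 8 differ more between genotypes (0.53 and 0.47) than within either.

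For 4 of the 7 tested rows (*hamp*, *tfa*, *cp* and *hp* on chromosome 7) the gap between the WT libraries was larger than the difference between the genotypes. The plot of gaps within and between genotypes sets these side by side. Over all tested genes the median absolute gap was 0.44 within WT and 0.38 within *pex5*-/- livers, and the median absolute difference between genotypes was 0.28. A gap between 2 single libraries spreads more than a difference between 2 means. It therefore tends to be the larger even without a genotype effect. The share of all tested genes with a WT gap above the genotype difference was not computed. WT replicate 4 was the lowest library for 6 of the 7 rows, and for 25.4% of all tested genes. The counts of 4 and of 6 rows include *hp* on chromosome 7, which passed the filter only through WT replicate 1 and lay under the floor elsewhere. Its wide WT gap followed from that, and its lowest library rested on 0 reads against 2 and 1 in *pex5*-/- livers. This row was left aside in the next 2 counts, which keep the *hp* row on chromosome 8, named *msmbl* in the gene name table. Without WT replicate 1, both *pex5*-/- libraries were above the WT library left in 6 of the other 6 rows, where 33.9% of all tested genes were. For each of these rows but *fth1a* this only restates that WT replicate 4 was the lowest library. Without WT replicate 4, both were below the WT library left in 2 of the 6 rows (*hamp* and *cp*), where 31.4% of all were. In the plot with each library left out, *hamp*, *cp*, *hp* on chromosome 7 and *hpxb* turned sign with the WT library kept. *tfa*, *fth1a*, *hpxa* and *hp* on chromosome 8 did not. *hamp* also turned, to 0.33, without *pex5*-/- replicate 1. Without WT replicate 1, *hp* on chromosome 7 rested on at most 2 reads in any library left.

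**Figure D3:**
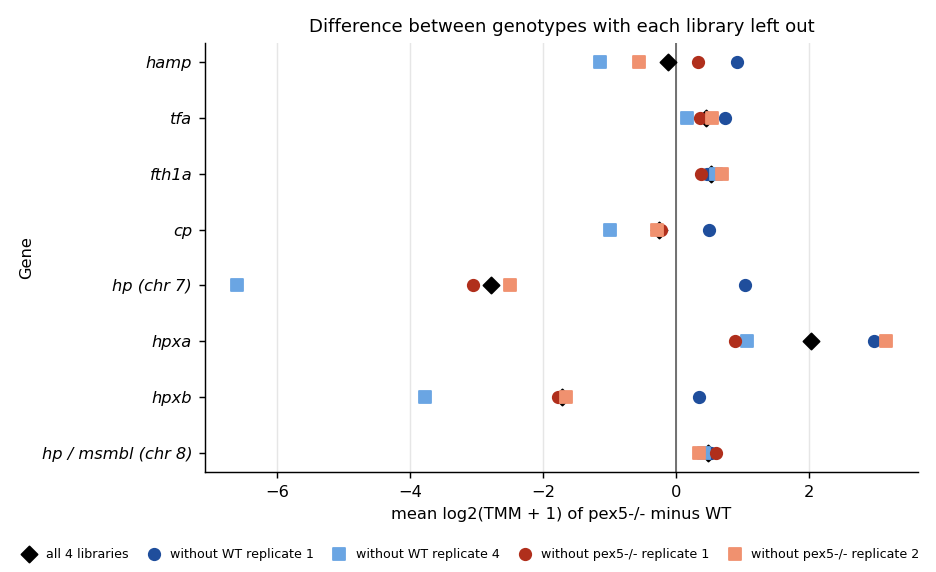
Difference between genotypes (mean log2(TMM + 1) of *pex5*-/- minus WT, horizontal axis) for each tested gene with all 4 libraries (diamonds) and with each library left out in turn. Without WT replicate 1 the symbol of *hamp* lies at 0.91 and without WT replicate 4 at -1.15, on opposite sides of 0, while the symbols of *fth1a* stay between 0.37 and 0.69.

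The genes highest in WT replicate 1 included others beyond the rows picked by symbol, chosen for naming after their values were seen. Of those named next, *saa* and *lect2l* are in the acute phase list. *c3a.1* is a listed hepatocyte marker and *steap4* belongs to the wider iron and heme list. *saa*, serum amyloid A, had 78 reads in WT replicate 1, against 2 in WT replicate 4 and 0 and 2 in *pex5*-/- livers. *lect2l*, a liver-secreted chemotactic factor in vertebrates, had 1198 and 90 reads in WT and 340 and 738 in *pex5*-/- livers. *c3a.1*, complement component 3, had 1557 and 427 reads in WT and 667 and 434 in *pex5*-/- livers. *steap4*, a reductase of iron and copper that rises in inflammation in mammals, measured 245 TMM in WT replicate 1 and 31.4 TMM in WT replicate 4, against 47.3 and 35.9 TMM in *pex5*-/- livers. All 4 were highest in WT replicate 1, and *saa* lay under the floor in the other libraries.

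The pattern was not shared by all acute phase genes. *crp3*, a C-reactive protein gene, measured 408 and 431 TMM in WT and 358 and 426 TMM in *pex5*-/- livers. *fgb*, the fibrinogen beta chain, was highest in WT replicate 1 by a small margin only, at 1318 and 1279 TMM in WT and 1193 and 804 TMM in *pex5*-/- livers. Of the 15 tested genes of the list, 0 were higher and 5 were lower in *pex5*-/- livers without overlap, where 16.9% and 13.5% of all tested genes were, with a median difference of -0.19 against 0.0043 over all tested genes. The 5 include *saa*, which passed the filter only through WT replicate 1. Its place among them rests on 2 reads in WT replicate 4 against 0 and 2 in *pex5*-/- livers, all under the floor. *lygl1*, a lysozyme gene in the macrophage list, was also highest in WT replicate 1, with 301 reads against 12 in WT replicate 4 and 26 and 32 in *pex5*-/- livers, while the defining macrophage genes *marco* and *csf1ra* had at most 6 reads in any library. The summed level of the 10 listed macrophage markers was 235 and 49.5 TMM in WT and 33.1 and 45.6 TMM in *pex5*-/- livers. Without *lygl1* the other 9 summed to 21.3 and 40.1 TMM in WT and 13.5 and 23.5 TMM in *pex5*-/- livers, with WT replicate 4 and not WT replicate 1 highest. The other tested marker, *ctss2.2*, was likewise highest in WT replicate 4, with 44 reads against 19 in WT replicate 1 and 1 and 15 in *pex5*-/- livers. The part of immune cells in the high library was not tested.

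**Figure D4:**
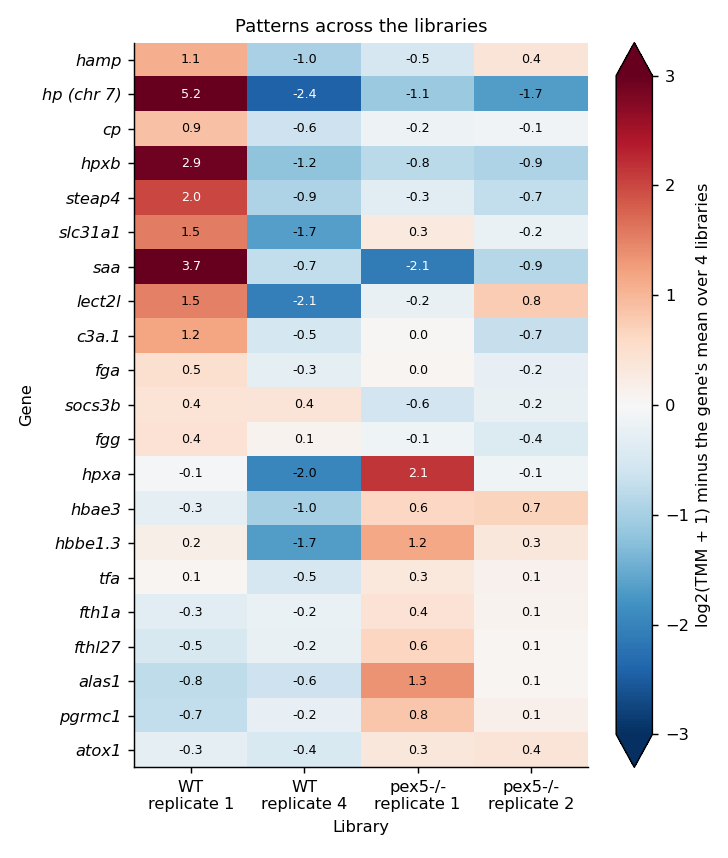
Level of iron and heme genes, acute phase genes, the hepatocyte marker *c3a.1* and globins in each library. Values are log2(TMM + 1) minus the gene's mean over the 4 libraries (colour and printed value, colour limits at 3). The genes from *hamp* to *c3a.1* are highest in WT replicate 1, whereas *tfa*, *fth1a*, *fthl27*, *alas1*, *pgrmc1* and *atox1* are higher in both *pex5*-/- libraries than in both WT libraries.

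Of a wider list of 119 iron and heme symbols, 97 were listed in the table, 92 had reads and 29 were tested. Of the 97, 47 had at most 5 reads in every library, and 5 of those had none. In *pex5*-/- livers 7 of the 29 (24.1%) were higher without overlap and 2 (6.90%) were lower, where 16.9% and 13.5% of all tested genes were, and 0 passed the adjusted test. The split moved with the scaling, and so did the shares over all tested genes. At equal totals 5 were higher and 5 lower, where 12.9% and 19.3% of all tested genes were. With the mitochondrial genome left out of those totals 5 were higher and 6 lower, where 11.1% and 22.2% of all were. Scaled by the hepatocyte markers 8 were higher and 3 lower, and the shares over all tested genes were not computed for that scaling. The median difference of the 29 was 0.04. The 7 higher genes were *alas1*, *pgrmc1*, *fdx1*, *atox1*, *fthl27*, *isca2* and *isca1*, and the 2 lower ones *socs3b* and *il6r*, as the plot of the other iron and heme genes shows. Of these, *alas1*, *pgrmc1*, *atox1* and *socs3b* had an unadjusted p under 0.05.

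Of the 8 tested genes of iron-sulfur cluster assembly, 3 were higher without overlap, where 16.9% of all tested genes were. *fdx1*, a mitochondrial ferredoxin, measured 23.4 and 11.0 TMM in WT and 31.6 and 29.7 TMM in *pex5*-/- livers (difference 0.89, SE 0.42). *isca2* and *isca1*, which assemble clusters of the 4Fe-4S type in mitochondria, differed by 0.48 (SE 0.33) and 0.18 (SE 0.26). *nfs1*, the cysteine desulfurase that supplies the sulfur, overlapped between the genotypes, at 76.6 and 77.7 TMM in WT and 107 and 77.4 TMM in *pex5*-/- livers.

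**Figure D5:**
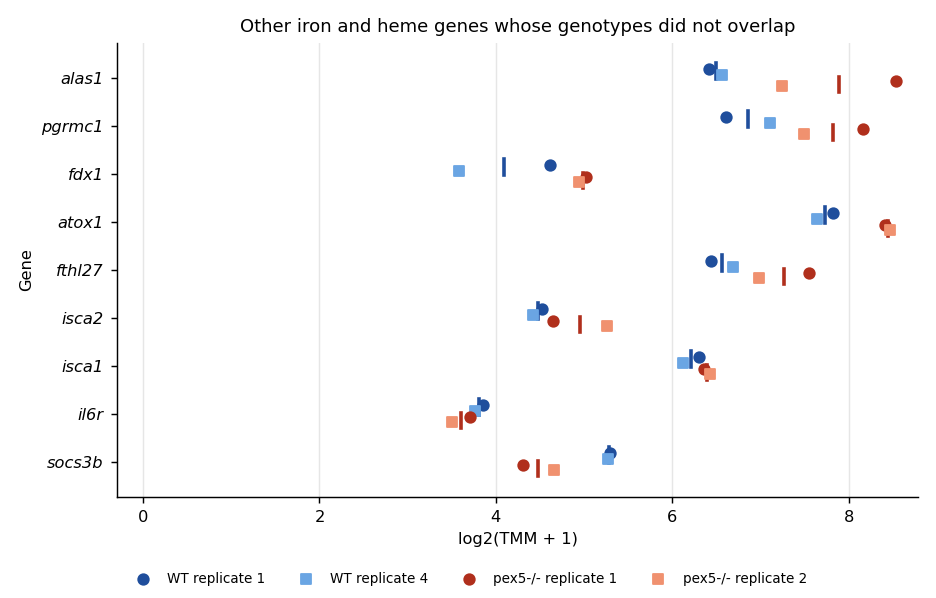
Level of the 9 tested genes of the wider iron and heme list whose genotypes did not overlap, as log2(TMM + 1) on the horizontal axis. Each symbol is 1 library and each bar the mean of a genotype. *alas1* spans 84.4 to 371 TMM with *pex5*-/- replicate 1 furthest right, and the lower genes *socs3b* and *il6r* have both *pex5*-/- symbols to the left.

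Over the 4 libraries, the tested genes with the pattern nearest to *hamp* were *add2* (distance 0.16 on the log2 scale, 71 and 14 reads in WT, 24 and 47 in *pex5*-/- livers), *ncalda* (0.18) and *pcdh10b* (0.23). All 3 had WT replicate 1 highest and WT replicate 4 lowest, as *hamp* did, but on far fewer reads. Nearest to *tfa* were *cope*, *arpc3* and *ssr2*, at distances of 0.0473 to 0.0492. Nearest to *fth1a* were *ostc* and *sdr16c5b* (0.0505 and 0.054) and a row of the mitochondrial genome (0.0693). With 4 libraries that differ in depth, likeness of pattern is a description only.

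Other cell types moved with the libraries too. The summed level of the 16 listed erythroid markers was 1082 and 496 TMM in WT and 2213 and 1745 TMM in *pex5*-/- livers. Of their 11 tested genes 10 were lowest in WT replicate 4, where 25.4% of all tested genes were. The genotypes parted as well, with 7 of the 11 higher in *pex5*-/- livers without overlap and 0 lower. Of all tested genes 16.9% were higher and 13.5% lower. The median difference of the 11 was 1.37, and 0 passed the adjusted test in limma. *hemgn*, which is among the 7, and *epb41b* passed the filter only through the *pex5*-/- libraries, where they are high. The 8 globin rows, whose product carries heme, made up most of the summed level, with 998 and 459 TMM in WT and 2003 and 1648 TMM in *pex5*-/- livers. WT replicate 4 held the most exocrine pancreas RNA (4053 TMM over 14 markers, against 1581, 2745 and 1811 TMM in the other libraries) and the most skeletal muscle RNA (1187 TMM over 8 markers, against 160, 422 and 486 TMM). The sum of 9 heart muscle markers separated the genotypes, at 177 and 265 TMM in WT and 21.8 and 35.3 TMM in *pex5*-/- livers. Of the tested ones 4 of 4 were lower without overlap, where 13.5% of all tested genes were (median difference -3.56, limma adjusted p of 0.376 for *myl7* and 1.00 for the other 3). *cmlc1*, *myh7l* and *nppa* passed the filter only through WT, where they are high, and *nppa* averaged 5.18 TMM over the mutant libraries. Of these 4 genes, only *myl7* averaged 10 TMM or more in each genotype. Of the markers under the filter, *tnnt2a* and *tnnc1a* were lower without overlap, while *myh6* (9 and 5 reads in WT, 1 and 10 in *pex5*-/- livers), *myh7* and *nppb* overlapped. The 19 hepatocyte markers summed to 166200 and 153700 TMM in WT and 218900 and 216000 TMM in *pex5*-/- livers, with a median difference of 0.0047 over the 18 tested. Most of that rise was *apoa2* alone, at 67530 and 71060 TMM in WT and 124000 and 118800 TMM in *pex5*-/- livers. The next most abundant, *apoa1b*, overlapped, at 59980 and 46490 TMM in WT and 52590 and 57110 TMM in *pex5*-/- livers. None of the 19 hepatocyte markers was at 0 in any library. The part of these differences in the iron and heme genes was not tested.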

How the data were processed

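RNA of 2 WT and 2 *pex5*-/- liver samples was sequenced with CEL-Seq2. The authors extracted UMIs (UMI-tools 1.1.1), trimmed reads (Trim Galore 0.6.7), mapped them to GRCz11 (HISAT2 2.2.1), counted them per gene (featureCounts 2.0.1), removed UMI duplicates, normalized by TMM (edgeR), and deposited the values as log2(TMM + 1), versions per the submitters' processing notes. The annotation release and the treatment of multi-mapping reads and strand are not given in the sources used here.

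Undoing the logarithm gave whole reads for 100% of values within 0.01 read. limma 3.58.1 in R 4.3.3 (trend, two-sided, Benjamini-Hochberg, threshold 0.05) was run on the deposited log2 values of all 3349 genes averaging 10 TMM or more. The code was also run on simulated counts in which all genes shared the same spread between libraries. That run does not measure how the test performs on these libraries. Python 3.11.15 with numpy 2.4.6, pandas 2.3.3 and scipy 1.17.1 did the rest. Ratios of 2 libraries have exact binomial intervals. The genotypes do not overlap when both *pex5*-/- libraries lie on the same side of both WT libraries in TMM.

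The members and lists were chosen with earlier results of these data known. All members were named, with genes of the wider list that were tested and did not overlap, 15 fixed partners of which *hmox1b*, *hmox2b* and *tmprss6* were not matched, and the 3 tested genes nearest to *hamp*, *tfa* and *fth1a* by Euclidean distance of centred log2 values. Other genes were named after their values were seen. *hpx* was matched to *hpxa* through a synonym in a RefSeq table of another assembly. Alternatives covered pseudocount, filter, scaling, voom and each library left out. No sequence was used.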

Additional observations from a re-analysis of the deposited data

How the results depend on the processing

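Over 12 alternatives, the differences of *tfa*, *hpxa*, *fth1a* and *hp* on chromosome 8 kept their sign, and none passed the adjusted threshold in limma (adjusted p from 0.296 to 1.00). Apart from libraries left out, they ranged from 0.31 to 0.45, 1.89 to 2.04, 0.39 to 0.53 and 0.34 to 0.47. Leaving out a library turned *hamp* (-1.15 to 0.91, with 0.91 without WT replicate 1 and 0.33 without *pex5*-/- replicate 1), *cp* (-0.998 to 0.49), *hp* on chromosome 7 (-6.60 to 1.04) and *hpxb* (-3.78 to 0.35, alternatives added after the data were seen), the upper value of the last 3 being that without WT replicate 1. Genes called ranged from 0 to 12 with a library left out (12 without WT replicate 1, 3 without WT replicate 4) and were 0 under every other alternative. With a library left out, the members without overlap ranged from 3 to 7 higher and from 0 to 3 lower (from 3 to 6 and 0 to 2 of 6 without *hp* on chromosome 7), and those of the wider list from 10 to 14 higher and from 4 to 9 lower, but with 3 libraries 30.5% to 37.1% of all tested genes were higher and 29.3% to 34.7% lower. Without the filter 1 member (*tfr2*, all values under the floor) was lower, and 16 genes of the wider list were higher and 7 lower, when 7 and 2 were in the test reported, and 10.6% and 12.5% of all genes with reads were higher and lower. Equal totals gave 5 lower genes of the wider list, and equal totals without the mitochondrial genome 6, where 19.3% and 22.2% of all tested genes were lower, with the median of all genes moved to -0.09 and -0.13 from 0.0043. Scaled by the hepatocyte markers, 4 members were higher and 0 lower, and 8 genes of the wider list were higher and 3 lower. The shares over all tested genes were not computed for that scaling. The cause of these moves was not tested. No paired analysis was possible because the WT and *pex5*-/- samples share only replicate number 1. Depth limits *slc40a1*, *tfr2*, *tfr1b* and *hmox1a*, which had at most 18 reads in any library.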

Other observations

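Nrf2 is the transcription factor of the oxidative stress response and in mammals also drives ferritin and heme oxygenase 1. Of 15 symbols taken as its targets, *srxn1* was not matched, the others fell on 13 rows, and 8 rows were tested. In *pex5*-/- livers 5 of the 8 were higher without overlap and 0 were lower, where 16.9% and 13.5% of all tested genes were, with a median difference of 0.52 and 0 called in limma. Besides *fth1a* these were *prdx1* (8.52 and 9.42 TMM in WT, against 72.2 and 49.8 TMM in *pex5*-/- livers), *gstp1* (212 and 273 TMM in WT, against 386 and 409 TMM in *pex5*-/- livers), *nqo1* and *txnrd3*. *fth1a* is a member already counted above, and *prdx1* passed the filter only through the *pex5*-/- libraries, where it is high. The glutamate-cysteine ligase genes *gclc* and *gclm* overlapped between the genotypes. So did *sqstm1*, at 12.1 and 25.9 TMM in WT and 23.3 and 23.5 TMM in *pex5*-/- livers (difference 0.38, SE 0.43). *hmox1a* was below the filter. Also below it, *me1* was lower without overlap (5 and 7 reads in WT, 0 and 1 in *pex5*-/- livers). *gsr*, likewise below it, was higher (6 and 5 reads in WT, 18 and 10 in *pex5*-/- livers). *furina*, a protease that processes hepcidin and its regulators, was highest in *pex5*-/- replicate 2, with 33 reads against 12 and 5 in WT and 7 in *pex5*-/- replicate 1.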
